A study of Rattus norvegicus with 3 samples.

Results

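Genes that mark macrophages and other myeloid cells were examined in cultures of rat heart muscle cells. The set held 40 symbols for surface receptors, complement C1q chains, lysosomal proteins and proteins of myeloid signalling. It was chosen with earlier results of these data known. A gene counted as measured where at least 1 probe set of the array carried its symbol and no other. By that rule 35 of the 40 were measured, through 42 probe sets, out of 14218 genes in all. Clec4d, Clec4e, Msr1, Marco and Spi1 were not analysed here.

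The cells were cardiomyocytes isolated by enzymatic digestion from fetal rats of the outbred Wistar strain. Plating lasted 48 hours in every culture, and treatment for 24 hours followed, in fresh medium, in medium conditioned by skeletal myoblasts or in medium conditioned by cardiac fibroblasts. By its title the study concerns the shielding of cardiomyocytes from oxidative stress by substances that myoblasts release, and the labels of these cultures name no oxidant. Each medium was represented by 1 Affymetrix 3' expression array, so the differences below have no replicate check, no error and no test, and the number of arrays limits the precision. The labels do not say how many animals or litters a culture came from.

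Macrophages arise from circulating monocytes or from precursors that settle in the heart before birth, and the signal of colony-stimulating factor 1 through Csf1r keeps them alive. They bind antibody-coated particles through Fc receptors, sense microbes through lectins and Cd14, and destroy what they engulf with lysosomal enzymes and with the oxidant made by the phagocyte NADPH oxidase. Many of their genes are switched on by the transcription factor PU.1, the product of Spi1, which recognises a purine-rich sequence close to the transcription start.

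Promoters were read for the genes of the set because PU.1 acts there and because these genes lay apart from most others on the arrays. RefSeq promoter sequences of rat assembly GRCr8 were matched by symbol for 23 of the 35 measured genes, in a window from 250 bases before to 50 bases after the annotated start. The letters GAGGAAG, searched on both strands as the PU.1 motif, were present in 12 of the 23 windows (52.2%). They were present in 12.4% of the 33469 windows of all genes. The 250 bases upstream of the start are given for the receptor gene Adgre1, which had the largest difference of the set, for Cd14, which holds the motif at 2 places, for the lysozyme gene Lyz2, and for Cd163, which had nearly equal values on the 3 arrays. Capitals mark GAGGAAG, and its absence says only that these letters are not in the window.
Adgre1 (chr9:2329190-2329439, plus strand): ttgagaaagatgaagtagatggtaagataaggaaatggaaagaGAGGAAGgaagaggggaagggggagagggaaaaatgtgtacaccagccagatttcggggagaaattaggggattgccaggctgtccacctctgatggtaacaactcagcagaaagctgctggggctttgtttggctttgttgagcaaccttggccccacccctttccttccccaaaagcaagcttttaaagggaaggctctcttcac
Cd14 (chr18:28611159-28611408, minus strand): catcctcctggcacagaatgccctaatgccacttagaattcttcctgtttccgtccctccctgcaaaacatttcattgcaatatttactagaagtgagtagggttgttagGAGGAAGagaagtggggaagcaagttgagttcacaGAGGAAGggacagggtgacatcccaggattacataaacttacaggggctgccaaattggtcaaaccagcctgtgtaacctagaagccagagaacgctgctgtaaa
Lyz2 (chr7:54798012-54798261, minus strand): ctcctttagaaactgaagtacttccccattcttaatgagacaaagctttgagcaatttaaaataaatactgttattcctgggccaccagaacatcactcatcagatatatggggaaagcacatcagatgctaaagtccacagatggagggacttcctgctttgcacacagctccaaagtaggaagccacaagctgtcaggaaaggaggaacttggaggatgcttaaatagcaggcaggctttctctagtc
Cd163 (chr4:158770524-158770773, plus strand): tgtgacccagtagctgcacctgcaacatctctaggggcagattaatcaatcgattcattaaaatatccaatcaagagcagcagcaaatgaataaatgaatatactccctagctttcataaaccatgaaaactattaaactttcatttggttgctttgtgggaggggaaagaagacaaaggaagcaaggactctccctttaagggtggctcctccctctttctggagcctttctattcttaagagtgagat

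The motif began 207 bases before the start in Adgre1 and 140 and 105 bases before it in Cd14. Itgam also held it at 2 places, 151 bases before the start and, on the opposite strand, 40 bases before it, where it overlapped a C/EBP motif. The other windows with the motif were those of Fcgr3a, Trem2, Mrc1, Csf1r, Cd53, Ctss, Laptm5, Gpnmb and Cd68, in the last of which it lay after the start and also overlapped a C/EBP motif. In fibroblast minus fresh medium the log2 differences of the 12 genes with the motif ranged from 0.45 to 5.41 and those of the 11 without it from 0.08 to 4.85, with medians of 2.32 and 1.69; this difference was not tested. Among the other motifs, TTNNGNAA (C/EBP) was in 16 of 23 windows against 41.3% of all, TGANTCA (AP-1) in 4 against 7.33%, TGTGGTT (RUNX) in 2 against 5.57% and TATAAA (the TATA box) in 2 against 14.2%. These matches are descriptions of letters and not of bound sites.

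**Figure D1:**
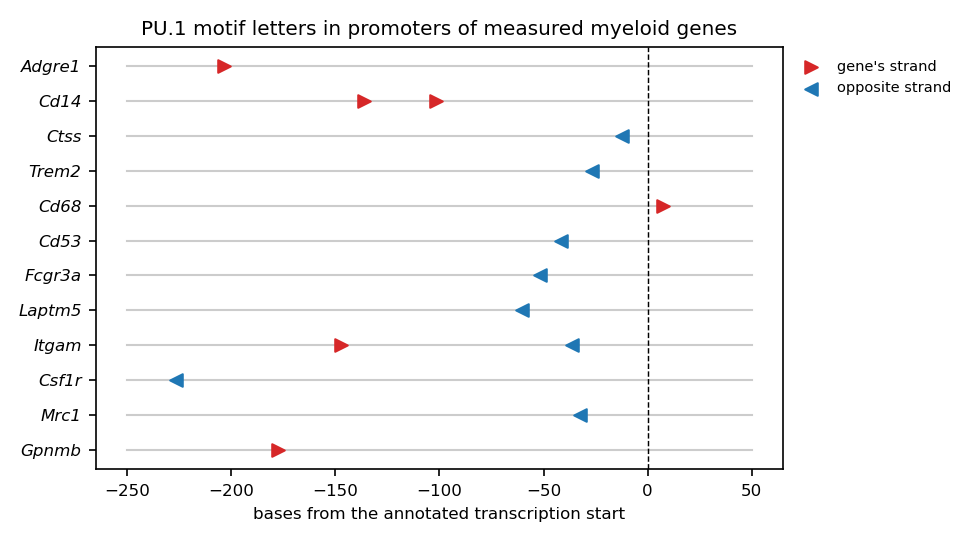
Position of the PU.1 motif letters in the promoters of 12 measured myeloid genes, in bases from the annotated transcription start (dashed line), ordered from the highest to the lowest fibroblast minus fresh difference. Each grey line is a window of 300 bases and arrows give the strand; Cd14 and Itgam carry 2 matches each.

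Values were deposited on a log2 scale and were read as centred on each probe set's median over the 3 arrays. They thus give differences between arrays and not how strongly a gene was expressed. A gene absent from the cells and a gene expressed equally in all cultures both have values of 0, and cardiomyocyte markers cannot show the purity of the cultures. The 42 probe sets for control transcripts meant to be added in equal amounts differed by up to 0.68 between fibroblast and fresh medium, 0.66 between myoblast and fresh medium and 1.02 between the conditioned media. Their median was higher by 0.29 in myoblast than in fresh medium. The 23 measured ribosomal protein genes had medians between 0.00 and 0.02 in the 3 comparisons.

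Fibroblast-conditioned medium had the higher values for nearly the whole set. Of the 35 genes, 25 were at least 2-fold higher than in fresh medium and 0 were 2-fold lower, where 4.26% of all genes were 2-fold higher and 2.6% 2-fold lower. The median log2 difference was 1.94, against 0.00 over all genes. Differences ran from 0.00 to 5.41. For 31 of the 35 genes the fresh-medium value was a blank read as 0, so their difference equals the fibroblast value. At 1.5-fold 29 genes were higher (9.09% of all genes), at 3-fold 20 (1.84%) and at 4-fold 17 (1.14%). All but Csf2rb lay above 0, as did 41% of all genes. Since each array holds RNA from a whole culture, more macrophages and more RNA of these genes per cell cannot be told apart.

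**Figure D2:**
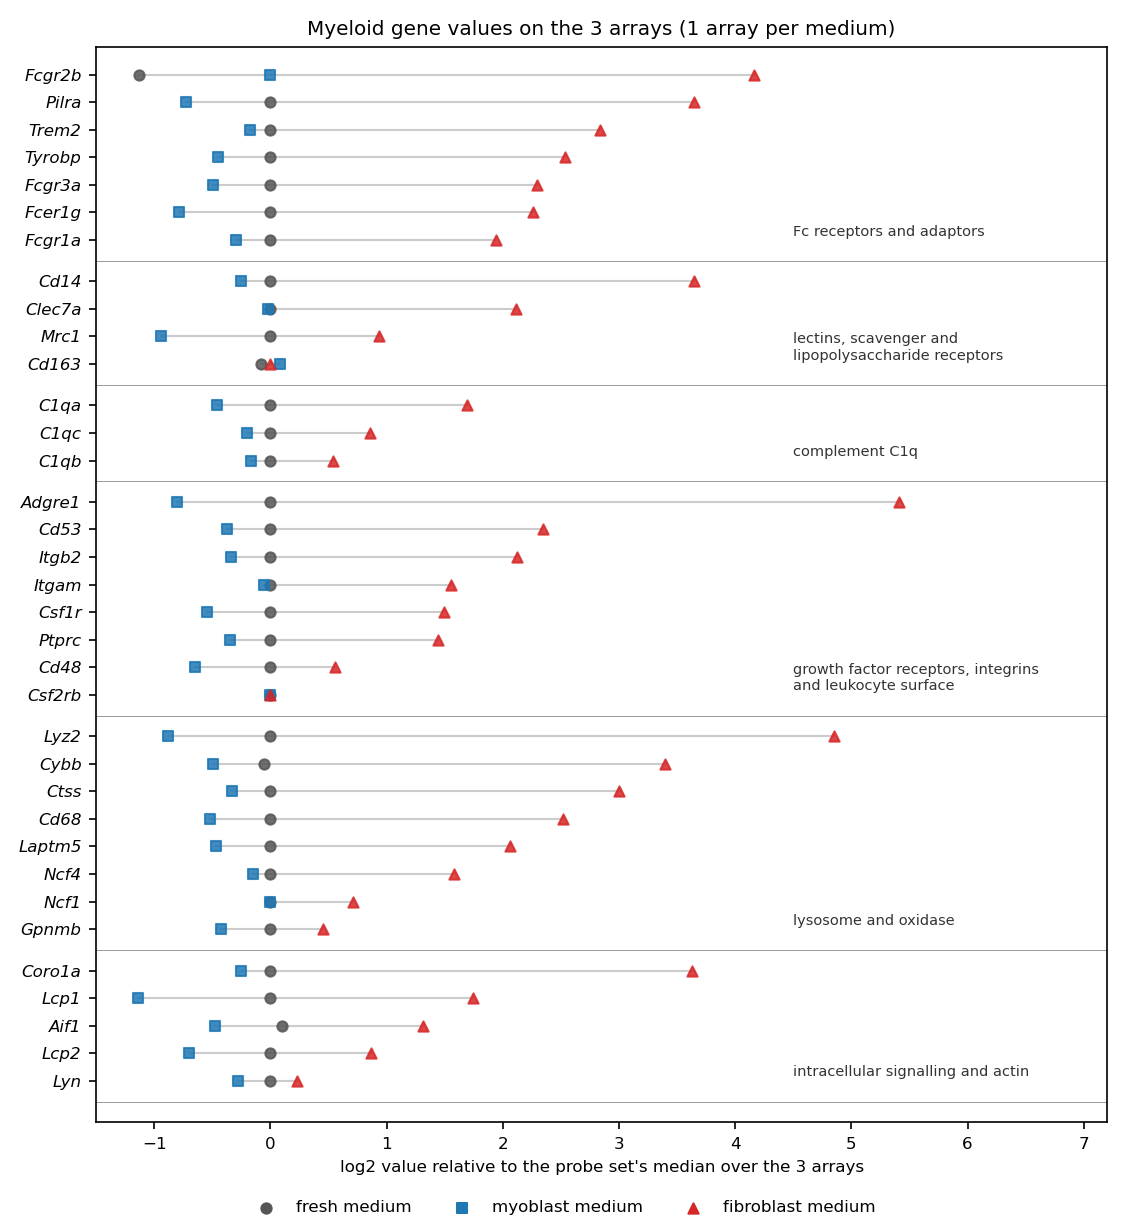
Log2 value of each of the 35 measured genes on the 3 arrays, relative to the median of its probe set, with genes grouped by role and 1 array per medium. Fibroblast medium (triangles) is to the right for all genes but Csf2rb, at 0 on every array, and Cd163, and myoblast medium (squares) lies to the left of fresh medium (circles) for 31 of 35.

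Fc receptors, their adaptors and related receptors differed in one direction. All 7 were at least 2-fold higher in fibroblast than in fresh medium (median 2.53), where 4.26% of all genes were. Fcgr2b, the inhibitory receptor for immunoglobulin G, had values of -1.13 in fresh, 0.00 in myoblast and 4.16 in fibroblast medium. It was thus lowest in fresh medium, unlike any other gene of the set except Cd163, and 39.3-fold higher in fibroblast than in fresh medium (5.30). Only 2 of the 14218 genes had a larger difference in that comparison. Fcgr1a, the high-affinity receptor for immunoglobulin G, had the smallest difference of the group, with 0.00 in fresh, -0.30 in myoblast and 1.94 in fibroblast medium.

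The adaptors that carry the activating signal of these receptors differed by similar amounts. Fcer1g, the common gamma chain that Fc receptors need for transport and signalling, had 0.00, -0.79 and 2.26 in fresh, myoblast and fibroblast medium. Tyrobp, the adaptor of Trem2, had 0.00, -0.45 and 2.53. Fcgr3a, an activating Fc receptor, was higher by 2.30 in fibroblast than in fresh medium, and Trem2, a lipid-sensing receptor, by 2.84. Pilra, an inhibitory receptor of myeloid cells, was higher by 3.64 (12.5-fold). The rat Fcgr and Pilr genes have close relatives, so probes of Fcgr2b, Fcgr3a and Pilra may also bind transcripts of a relative.

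Pattern-recognition and scavenger receptors were less uniform. Cd14, which hands lipopolysaccharide to Toll-like receptor 4, had 0.00 in fresh, -0.26 in myoblast and 3.65 in fibroblast medium, a 12.5-fold difference between fibroblast and fresh medium. Clec7a, a receptor for fungal beta-glucan, was higher by 2.11. The mannose receptor Mrc1 had 0.00, -0.94 and 0.94, just short of 2-fold in either direction. Cd163, the scavenger receptor for haemoglobin bound to haptoglobin, had -0.08, 0.08 and 0.00, which spans less than the control transcripts. Mrc1 and Cd163, often used as markers of resident or alternatively activated macrophages, therefore had the smallest fibroblast minus fresh differences of these 4 receptors.

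The chains of C1q, the complement protein that macrophages make and that starts the classical pathway, were all higher in fibroblast medium but by unequal amounts. C1qa had 0.00 in fresh, -0.46 in myoblast and 1.69 in fibroblast medium (3.24-fold over fresh). C1qb had 0.00, -0.16 and 0.54, within the range of the control transcripts. C1qc lay between them with a difference of 0.85. The chains assemble into a single protein, and 1 of the 3 was at least 2-fold higher than in fresh medium, where 4.26% of all genes were.

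Among growth factor receptors, integrins and leukocyte surface proteins, 6 of 8 were at least 2-fold higher in fibroblast than in fresh medium. Their list had a median of 1.52, and 4.26% of all genes were 2-fold higher. Adgre1, an adhesion receptor used as a macrophage marker in rodents, had 0.00 in fresh, -0.80 in myoblast and 5.41 in fibroblast medium. This was the largest fibroblast minus fresh difference of the set (42.6-fold) and ranked 2 from the top among all genes. Csf1r was higher by 1.49 (2.81-fold), well below Adgre1, and Csf2rb, the shared chain of the receptors for granulocyte-macrophage colony-stimulating factor, interleukin-3 and interleukin-5, had no value on any array and was read as 0.00 throughout. Itgb2 and Itgam, which pair to form the complement receptor of phagocytes, were higher by 2.12 and 1.56. The tetraspanin Cd53 was higher by 2.35. Ptprc, the tyrosine phosphatase of all leukocytes, was higher by 1.45. Cd48, an adhesion protein of blood cells, was at 0.55.

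Lysosomal genes and subunits of the phagocyte oxidase included 6 of 8 genes that were at least 2-fold higher, around a median of 2.29. By the same threshold 4.26% of all genes were higher than in fresh medium. Lyz2, the lysozyme of macrophages, had 0.00 in fresh, -0.88 in myoblast and 4.85 in fibroblast medium, a 28.8-fold difference between fibroblast and fresh medium. Ctss, the protease cathepsin S, was higher by 3.00, the endosomal glycoprotein Cd68 by 2.52 and the lysosomal membrane protein Laptm5 by 2.06. Gpnmb, a transmembrane glycoprotein of lysosomes that other cells also make, had 0.00, -0.42 and 0.45 and lay within the range of the control transcripts. The oxidase subunits were graded. The catalytic subunit Cybb was higher by 3.45 (11.0-fold), the cytosolic subunit Ncf4 by 1.58, and the cytosolic organiser Ncf1 was at 0.71, from a probe set with a value only in fibroblast medium.

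Of the 5 measured genes of intracellular signalling and the actin cytoskeleton, 3 were at least 2-fold higher in fibroblast medium (median 1.21). Over all genes 4.26% were 2-fold higher than in fresh medium. Coro1a, an actin-binding coronin of blood cells, had 0.00 in fresh, -0.25 in myoblast and 3.63 in fibroblast medium. Lcp1, the actin-bundling plastin of leukocytes, had 0.00, -1.14 and 1.75. The adaptor Lcp2 was at 0.87. The Src-family kinase Lyn, which non-myeloid cells also express, had 0.00, -0.28 and 0.23, the smallest difference of this group. Aif1, a calcium-binding protein used as a microglia and macrophage marker, had a mean difference of 1.21 that rested on 1 of its 2 probe sets.

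Myoblast-conditioned medium had slightly lower values than fresh medium for most of the set. The difference was below 0 for 31 of 35 genes, where 40.2% of all genes were below 0, and the median was -0.38 against 0.00 over all genes. At 1.5-fold 8 genes were lower (2.86% of all genes), and at 3-fold 0 were lower and 0 higher (0.148% and 0.38% of all genes). Lcp1 alone was at least 2-fold lower (-1.14, 2.2-fold), where 0.844% of all genes were 2-fold lower, and Fcgr2b alone was at least 2-fold higher (1.13, 2.19-fold), where 1.35% were 2-fold higher. With Lcp1 and Fcgr2b, 8 genes exceeded the largest difference of the control transcripts in size, as did 5.47% of all genes. The others were Mrc1 at -0.94, Lyz2 at -0.88, Adgre1 at -0.80, Fcer1g at -0.79, Pilra at -0.73 and Lcp2 at -0.70. Apart from Fcgr2b, Cd163 was the only gene above 0, at 0.17, and Ncf1 and Csf2rb were at 0.00. The control transcripts had the opposite direction in this comparison, with a median above 0.

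The median difference of the set was larger still between the conditioned media. In fibroblast medium 29 of the 35 genes were at least 2-fold higher than in myoblast medium and 0 were 2-fold lower, where 3.94% and 2.12% of all genes were, and the median was 2.24. Adgre1 (6.22, 74.4-fold) and Lyz2 (5.73, 53.1-fold) ranked 2 and 3 from the top of all 14218 genes. Pilra was higher by 4.37, Fcgr2b by 4.16, Cd14 by 3.91, Cybb by 3.89 and Coro1a by 3.88. The genes short of 2-fold were Cd163 at -0.08, Csf2rb at 0.00, Lyn at 0.50, C1qb at 0.70, Ncf1 at 0.71 and Gpnmb at 0.88. The order fibroblast above fresh above myoblast medium was found in 31 of 35 genes, where 12.9% of all genes had it. The comparisons share arrays and are not independent of each other.

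**Figure D3:**
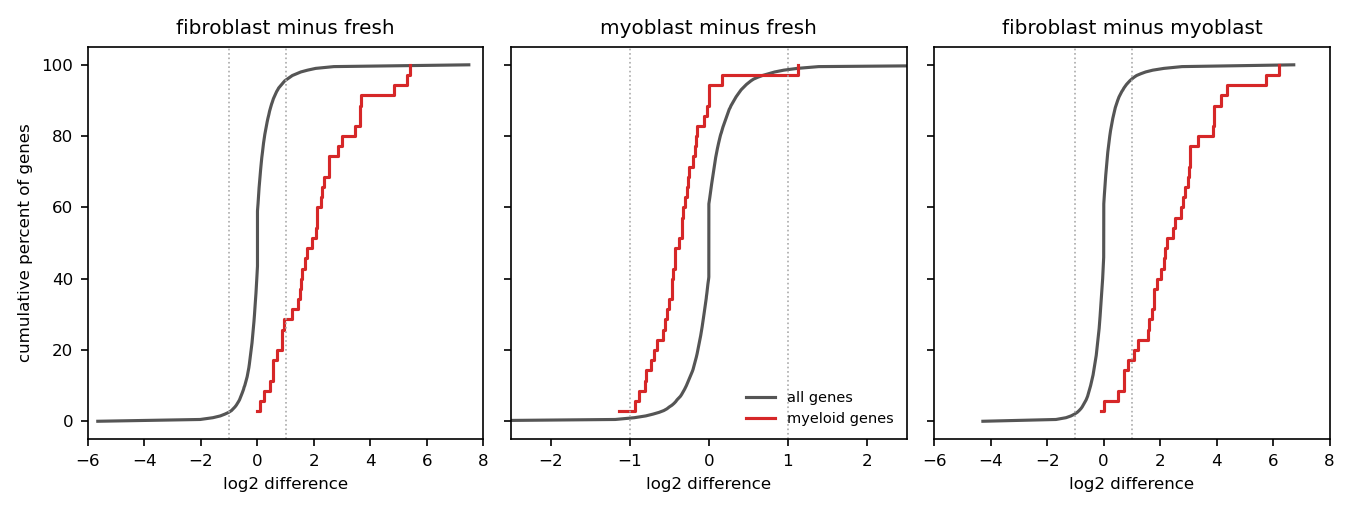
Cumulative percent of the 35 myeloid genes (red) and of all 14218 genes (grey) by log2 difference in each comparison; dotted lines mark 2-fold and the middle panel has a narrower axis, which leaves out the most extreme of all genes. The red line lies to the right of the grey line in both comparisons with fibroblast medium (medians 1.94 and 2.24) and mostly to its left in myoblast minus fresh medium (median -0.38).

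For 28 of the 35 genes the value came from 1 probe set, and 7 genes had 2 probe sets that could be set side by side. Both probe sets had the same sign in fibroblast minus fresh medium for 6 of them. The pairs were close for Lyn (0.22 and 0.23), Lcp2 (0.73 and 0.998) and Laptm5 (1.70 and 2.42), and wider for Trem2 (2.39 and 3.29) and Cybb (2.93 and 3.98). For Ptprc the values were 0.55 and 2.34, so the gene's mean of 1.45 hides a gap of more than 2-fold. The 0.55 came from a probe set with a value only in fibroblast medium. For Aif1 1 probe set had 0.00 in fresh, -0.96 in myoblast and 2.62 in fibroblast medium. The other had a value only in fresh medium, 0.21, and blanks read as 0.00 in the conditioned media. Their differences of 2.62 and -0.21 had opposite signs, and the direction of Aif1 depends on which is used. Like most differences of the set, the -0.21 rests on a blank read as 0.00. It lies within the range of the control transcripts. In myoblast minus fresh medium the probe sets of Cybb had opposite signs, 0.11 and -0.98. The first had -0.11 in fresh, 0.00 in myoblast and 2.81 in fibroblast medium, and the other 0.00, -0.98 and 3.98, so fibroblast medium was highest in both.

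**Figure D4:**
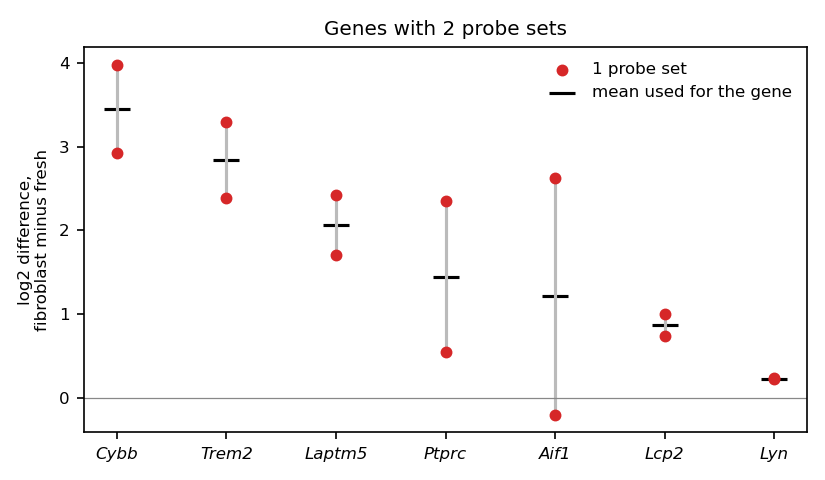
Log2 difference between fibroblast and fresh medium for each probe set (points) of the 7 genes measured by 2 probe sets, with the mean used for the gene (bar). Aif1 has the widest gap, from -0.21 to 2.62, and Lyn the narrowest. The lower points of Aif1 and Ptprc come from probe sets with a value on only 1 array.

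A longer list of 63 myeloid genes outside the set, 50 of them measured, had the same direction at smaller size. Like the set, this list was chosen with earlier results of these data known. In fibroblast minus fresh medium 22 were at least 2-fold higher and 1 was 2-fold lower, with a median of 0.93, against the shares of 4.26% and 2.6% of all genes given above. The transcription factor Runx1 was highest at 2.88, followed by the receptor for bacterial lipoproteins Tlr2 at 2.72, the platelet and leukocyte protein Plek at 2.55 and the phosphatase Ptpn6 at 2.43. Cd36, a fatty acid transporter that cardiomyocytes and endothelial cells also express, was the gene that was 2-fold lower, at -1.12. Cx3cr1, Csf3r and Alox5 were at 0.00. Toll-like receptor 4, the partner of Cd14, was at 0.16, and its co-receptor Ly96 at 0.22. In myoblast minus fresh medium the list had a median of -0.20, with 36 of 50 below 0 (40.2% of all genes) and 1 at least 2-fold higher (1.35% of all genes), the haem oxygenase Hmox1 at 1.01.

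Markers of lymphocytes and mast cells lay close to 0. The 17 measured markers of T and NK cells lay between -0.29 and 0.14 in fibroblast minus fresh medium, the 6 of B cells between -0.32 and 0.28 and the 9 of mast cells between -0.09 and 0.10. Of 12 genes of monocytes and neutrophils 0 passed 2-fold in that comparison, which is close to the share of all genes (4.26% higher and 2.6% lower) and says little about a list of this size. In fibroblast minus fresh medium 6 of the 12 lay above 0 and 4 below (median 0.07), where 41% and 43.1% of all genes did. The largest in size were S100a4, which fibroblasts also express, at 0.87, Mmp8 at 0.69, Camp at 0.58 and Lcn2 at 0.41. Plac8 was lowest at -0.40, with S100a9 at -0.23, S100a8 at -0.02 and Ccr2 at 0.21. In fibroblast minus myoblast medium 1 of the 12 was at least 2-fold higher, where 3.94% of all genes were. It was the protease gene Mmp9, at 1.02, which did not exceed the largest control transcript difference in size. Csf3r and Cxcr2 of that list were at 0.00 on every array. The mean centred value of the T and NK list was 0.00 in fresh, -0.02 in myoblast and -0.01 in fibroblast medium, and that of the monocyte and neutrophil list 0.00, -0.14 and 0.19, against -0.03, -0.40 and 2.02 for the 35 myeloid genes. A marker near 0 may be absent from every culture.

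Most endothelial and cardiomyocyte markers differed in the direction opposite to the myeloid genes in fibroblast minus fresh medium. Below 0 were 14 of 16 and 18 of 22, where 43.1% of all genes were. Exceptions included the endothelial Eng at 0.83 and the cardiomyocyte Myh7 at 0.72. Of 16 measured endothelial markers 11 were at least 2-fold lower in fibroblast than in fresh medium and 0 were 2-fold higher, where 2.6% and 4.26% of all genes were. Their median was -2.02, and their mean centred value was 0.73 in fresh, -0.02 in myoblast and -1.40 in fibroblast medium. In myoblast minus fresh medium 5 of the 16 were 2-fold lower (median -0.71), where 0.844% of all genes were, the same direction as the myeloid genes. Cardiomyocyte markers had a median of -0.65 in fibroblast minus fresh medium, with 6 of 22 at least 2-fold lower, against 2.6% of all genes, and mean centred values of 0.17, -0.01 and -0.51. Fibroblast markers had a median of 0.29. Of 15 measured, Mfap5, a microfibril protein, and Thy1, a surface glycoprotein, were 2-fold higher (4.26% of all genes). Fbln1 and Pdgfra were 2-fold lower (2.6% of all genes). The 17 proliferation genes lay between -0.53 and 0.36 in fibroblast minus fresh medium. The part of these cell types in the myeloid values was not tested.

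**Figure D5:**
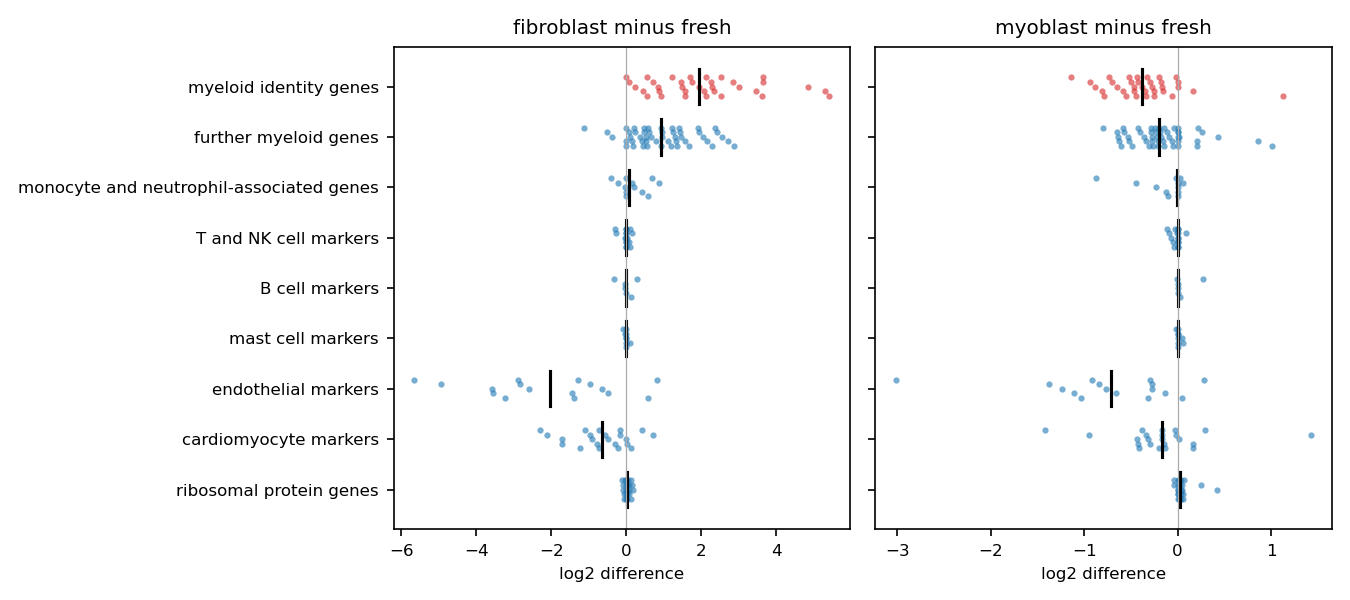
Log2 difference of each gene (points) and median (bar) of the 35 myeloid identity genes (red) and of other gene lists (blue). These include further myeloid genes and ribosomal protein genes, and fibroblast markers are not drawn. The panels give fibroblast minus fresh and myoblast minus fresh medium, and their axes differ. In fibroblast minus fresh medium the myeloid bar is at 1.94 and that of the further myeloid genes at 0.93, the lymphocyte and mast cell bars are near 0 and the endothelial bar is at -2.02.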

How the data were processed

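Total RNA from 1 culture per medium was hybridised to 1 array each. RMA, a method of background correction, normalization and summary of probes, is named in the submitters' processing notes, but no settings or software are stated in the sources used here. The deposited log2 values were read as centred on each probe set's median, a step that the submitters do not state. Of 31099 probe sets, 17117 had 2 values, always 1 above and 1 below 0. Another 8002 had 1 value and 5980 had none, and these do not show centring by themselves. Blank cells were read as 0.

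The platform annotation paired 20832 probe sets with 1 symbol, 436 with several genes and 9831 with none here. Current symbols came from the RefSeq table of GRCr8 by Entrez ID (20764 matched). Probe sets that shared a single symbol were averaged. Differences between media were counted at 2-fold, a log2 difference of 1. With 1 array per medium no test was possible, and the shares of all genes past the same threshold are given instead. The counting step was run on simulated data with a built-in shift above the threshold, which checks the code and not the counts given here. The design fixed a search for protein features, which was not run because no protein sequences were used here.

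The genes and lists were chosen with earlier results of these data known. Every measured member is accounted for; values on all 3 arrays are given for the largest and smallest fibroblast minus fresh difference of each role group, for members past 2-fold in myoblast minus fresh medium and, where probe sets disagree in sign, per probe set. Other lists name up to 4 members by size, and further ones chosen after their values were seen. Alternatives were the median or the widest probe set of a gene, and leaving out probe sets ending in _x_at, _s_at or _a_at. Further ones left out genes at 0 or probe sets with fewer than 2 values. The rest were centring on all probe sets or on ribosomal protein genes, and thresholds of 1.5-fold and 3-fold. Python 3.11.15, NumPy 2.4.6, pandas 2.3.3 and Matplotlib 3.10.9 were used.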

Additional observations from a re-analysis of the deposited data

Results flagged for a closer look

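Probe sets annotated to several genes, 436 in all, were left out of the gene values. Of these, 5 that belong to families of the set are given, chosen after the data were seen. All 5 were at least 2-fold higher in fibroblast than in fresh medium, where 4.26% of the 14218 genes were. They were picked with their differences known, so their number is not a share. The share over the 436 is not given here. The Fc receptor probe sets, both for Fcgr2a and Fcgr2al1, had log2 differences of 2.77 and 2.78. The probe set shared by Pilra and another locus had a difference of 2.88, against 3.64 for the probe set of Pilra alone. For the related Pilrb family, the probe set for 6 genes had a difference of 2.44 and that for Pilrb2 and Pilrb-ps1 had 1.36. In myoblast minus fresh medium all 5 lay between -0.38 and -0.11. These are signals outside the main measurement, above the level in the fresh-medium array.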

How the results depend on the processing

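In fibroblast minus fresh medium 20 genes were higher at 3-fold and 29 at 1.5-fold, by construction of the thresholds. At 2-fold, 25 of 35 genes were higher, and 23 of 34 without probe sets ending in _x_at, _s_at or _a_at. The median of this comparison stayed between 1.92 and 2.12 over the alternatives tried. The median of fibroblast minus myoblast medium was 2.72, against 2.24, both when a gene was taken from its widest-ranging probe set and when probe sets without 2 values were left out. In myoblast minus fresh medium the count of lower genes was 8 at 1.5-fold and 0 at 3-fold, and that of higher genes 0 at 3-fold, by construction of the thresholds. The order fibroblast above fresh above myoblast held in 29 to 32 genes. Without probe sets ending in _x_at, _s_at or _a_at, Aif1 reversed to -0.21 in fibroblast minus fresh medium. Only its other probe set remained, which had a value in fresh medium alone. Shifts were judged against the SD of the control transcripts' differences. No paired analysis was possible because each medium had 1 array. No replicate could be left out for the same reason. Signal over background is unknown after centring.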

Other observations

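Ligands of colony-stimulating factor receptors lay between -0.31 and 0.48 in fibroblast minus fresh medium, within the range of the control transcripts. Csf1, the main ligand of Csf1r, was at 0.48 over 4 probe sets, its alternative ligand Il34 at -0.31, Csf3 at 0.21 and Csf2 at 0.00. Il34 was lower in myoblast than in fresh medium, at -0.93.

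Genes associated with resident tissue macrophages did not share one direction. Of 10 measured genes, Folr2, a folate receptor, was at 2.10 in fibroblast minus fresh medium, with 0.00 in fresh, -0.50 in myoblast and 2.10 in fibroblast medium. Lyve1, a hyaluronan receptor of lymphatic vessels and of some resident macrophages, was at -3.59, and the scavenger receptor Stab1, which sinusoidal endothelium also makes, had 0.39 in fresh, 0.00 in myoblast and -0.61 in fibroblast medium, just short of 2-fold lower. Gas6, a ligand of the engulfment receptor Mertk, was at 0.95, and Mertk itself at 0.28. The median of the list was 0.14.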
